A study of Bos taurus and Sus scrofa with 6 samples.

Results

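Endothelial cells of the prepubertal bovine testis were examined in single-cell RNA-sequencing libraries of whole testicular cell suspensions. The cells were chosen by their own counts: a called droplet barcode was kept when the endothelial genes PECAM1, KDR, CLDN5, TIE1 and EMCN together held at least 2 unique molecular identifiers (UMIs, each a tag for 1 captured mRNA molecule) spread over at least 2 of the 5 genes. A barcode was dropped when at least 2 genes held a UMI among the germ cell genes DDX4, DAZL, MAEL and TDRD1, the Sertoli cell genes FSHR, AMH and CLDN11, the Leydig cell genes CYP17A1, CYP11A1 and STAR, the lymphocyte genes CD3E, CD3D and NKG7, or the macrophage genes C1QA, C1QB and C1QC. This left 90 of the 18504 called cattle barcodes, out of 27961 called barcodes in the series. The levels of the 5 selection genes and the 16 genes of the drop conditions are therefore given as descriptions without a test.

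The testes were obtained at castration from Holstein bull calves aged 4.5 months, for which the labels give no treatment or altered allele, and total testicular cells were released with trypsin-EDTA followed by collagenase IV and DNase I. Testes of mixed breed pigs aged 3 months, digested in the same way, provided the second species. Each species had 3 libraries. Per the methods the 3 came from different animals, although libraries 2 and 3 of each species carry the same testis number in their titles; P-values measure the spread between these libraries. The cattle libraries held 5805223, 27409347 and 53325608 UMIs in all deposited barcodes. The minimum total for a called barcode, from the default rule of the barcode caller, was 460, 972 and 2644 UMIs.

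Endothelial cells line the lumen of every blood and lymphatic vessel, where they control the passage of fluid, solutes and leukocytes. In the testis the vessels run through the interstitium between the seminiferous tubules, carry gonadotropins to the Leydig and Sertoli cells and drain testosterone and lymph. Genes of the VEGF, angiopoietin and Notch pathways act in endothelium. Lymphatic endothelium depends on the transcription factor PROX1 and secretes the chemokine CCL21, which guides dendritic cells and T cells into lymphatic vessels.

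The 3 cattle libraries contributed unequally. In cattle 1, 5 of 3545 called barcodes were endothelial, a share of 0.141% with an exact 95% binomial interval of 0.0458% to 0.329%. In cattle 2 the share was 49 of 8751 barcodes, or 0.560% (0.415% to 0.740%), and in cattle 3 it was 36 of 6208, or 0.580% (0.406% to 0.802%). The intervals of cattle 2 and cattle 3 overlapped each other and lay above that of cattle 1; they cover counting error only. The order depended on depth and on mixed cells. With every called barcode thinned to 460 UMIs the shares were 0.0564%, 0.183% and 0.0805% (2, 16 and 5 cells), and without the cells that held at least 2 stromal or myoid genes the share of cattle 3 was 0.322%, inside the interval of cattle 1. The endothelial cells summed to 3986, 115280 and 178853 UMIs in the 3 libraries, so that 1 UMI was worth 251, 8.67 and 5.59 CPM (UMIs per 1000000), respectively, and a gene at 0 in cattle 1 may still reach 753 CPM at a floor of 3 UMIs. Median totals per endothelial cell were 734, 1737 and 4523 UMIs, against 796, 1717 and 4546.5 in the remaining called barcodes of the same libraries. The libraries shared called barcode sequences (45 between cattle 1 and 2, 23 between cattle 1 and 3 and 71 between cattle 2 and 3), but no endothelial barcode was shared.

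Of the selection genes, the tight junction gene CLDN5 was present in the most cells, with 408 UMIs in 86 of the 90. A selection without CLDN5 kept 1, 23 and 26 cells of cattle 1, 2 and 3. The level of CLDN5 was 2509 CPM in cattle 1, 1509 CPM in cattle 2 and 1252 CPM in cattle 3. In the remaining cells it was 7.48, 28.9 and 10.7 CPM, below the 7.88, 31.7 and 28.9 CPM of empty droplets, which hold the cell-free RNA of each suspension. The sialomucin EMCN had 113 UMIs in 60 cells, the adhesion molecule PECAM1 67 UMIs in 49 cells, and KDR, the main VEGF receptor, 67 UMIs in 39 cells. The receptor tyrosine kinase TIE1 was the sparsest, with 8 UMIs in 7 cells. At the edge of the selection, 16 of the 90 cells held exactly 2 UMIs of the 5 genes, while 349 barcodes without a drop condition held 1 UMI of 1 gene and 65 held at least 2 UMIs of a single gene, and these were left out. A further 27 barcodes met the endothelial condition but were dropped, 25 of them in cattle 3, where 17 met the macrophage condition.

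The name of these cells was set beside endothelial genes that the selection did not use. The gene lists were chosen with earlier results of these data known, so they are not an independent check. For every gene, UMIs were summed over the endothelial cells and over all other called cells of each library, and the 6 sums were compared with edgeR. This asks which further genes accompany the selection genes in the same cells. Of 14296 genes tested, 253 (1.77%) were called higher and 145 (1.01%) lower in endothelial cells at an adjusted P below 0.05. With library as a block, since both sums of a library come from the same suspension, 407 genes were higher and 444 lower, and these included all 253 and 145. The calls leaned on the library with the most cells: without cattle 2, 92 genes were higher and none lower, although 884 genes were lower at an unadjusted P below 0.05. Where a P without a library is given for a gene below, its lowest P over the other alternatives was 0.00493 or less. The median log2 fold change of all genes tested was -0.94, and list medians should be read against that value. It was -0.71 without composition scaling (library size alone) and 0.24 with DESeq2. The composition factors of the endothelial sums were 2.75, 0.908 and 0.850 in cattle 1, 2 and 3, against 0.723, 0.795 and 0.819 for the other cells. The printed CPM are not scaled by these factors, so that fold changes depart from ratios of CPM, most in cattle 1.

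Of 20 tested endothelial identity genes, 12 rose and none fell in endothelial cells, with a median log2 fold change of 3.86 (edgeR; 13 rose with the library block, which added VWF). The 12 were TEK, ESAM, ROBO4, CLEC14A, ECSCR, S1PR1, PCDH12, ADGRL4, CD93, STAB1, TM4SF18 and CALCRL. ECSCR, an endothelial cell surface regulator of chemotaxis, was at 0, 295 and 280 CPM in endothelial cells of cattle 1, 2 and 3 against 2.30, 1.75 and 2.88 CPM elsewhere in the libraries (6.59 on the log2 scale, SE 0.54, adjusted P = 3.87e-05). TM4SF18, a tetraspanin-like membrane protein, was at 2258, 434 and 268 CPM against 4.32, 1.86 and 1.54 CPM (7.34, SE 0.59, adjusted P = 3.78e-05). CALCRL, the receptor for adrenomedullin when paired with a RAMP protein, was at 251, 191 and 235 CPM against 2.30, 4.48 and 5.58 CPM (5.36, SE 0.43, adjusted P = 3.87e-05). For TM4SF18 and CALCRL the endothelial and other sums did not overlap in any library, whereas ECSCR had no UMI among the 5 cells of cattle 1. The calls of TEK, ESAM and CLEC14A were lost without cattle 2 (adjusted P = 0.599, 0.492 and 0.138).

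Several classical blood vessel genes were sparse. VWF, the clotting factor carrier stored in endothelial granules, had 7 UMIs in 5 cells, at 0, 34.7 and 16.8 CPM against 4.32, 3.44 and 3.59 CPM in other cells, and did not pass the test (adjusted P = 0.0649; 0.0145 with the library block). FLT1 and CD34 had 3 UMIs each, and neither PLVAP nor MMRN2 had a UMI in any of the 90 cells. CDH5 and ENG are not in the gene table under those symbols and were not analysed here. RAMP2, the partner of CALCRL, was the most abundant identity gene, at 2258, 1865 and 1951 CPM against 463, 445 and 711 CPM, but its difference did not pass the test (log2 fold change 1.39, SE 0.49, adjusted P = 0.191), and the stromal and myoid cells held it at 1126, 889 and 1395 CPM.

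Endothelial transcription factors followed the identity genes, with 7 of 12 higher (8 with the block, which added KLF4), none lower and a median log2 fold change of 3.47. ERG, an ETS factor that maintains endothelial identity, was at 0, 78.1 and 67.1 CPM against 1.44, 0.546 and 1.31 CPM in other cells (5.81, SE 0.61, adjusted P = 0.000233). LMO2 was at 0, 312 and 263 CPM against 5.75, 6.44 and 8.31 CPM (5.0, SE 0.49, adjusted P = 0.000131). HHEX, a homeobox factor of early vessels, EPAS1, the hypoxia-inducible factor of endothelium, ELK3, ETS1 and GATA2 made up the rest. The calls of ETS1 and GATA2 did not hold without cattle 2 (adjusted P = 0.267 and 0.521).

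**Figure D1:**
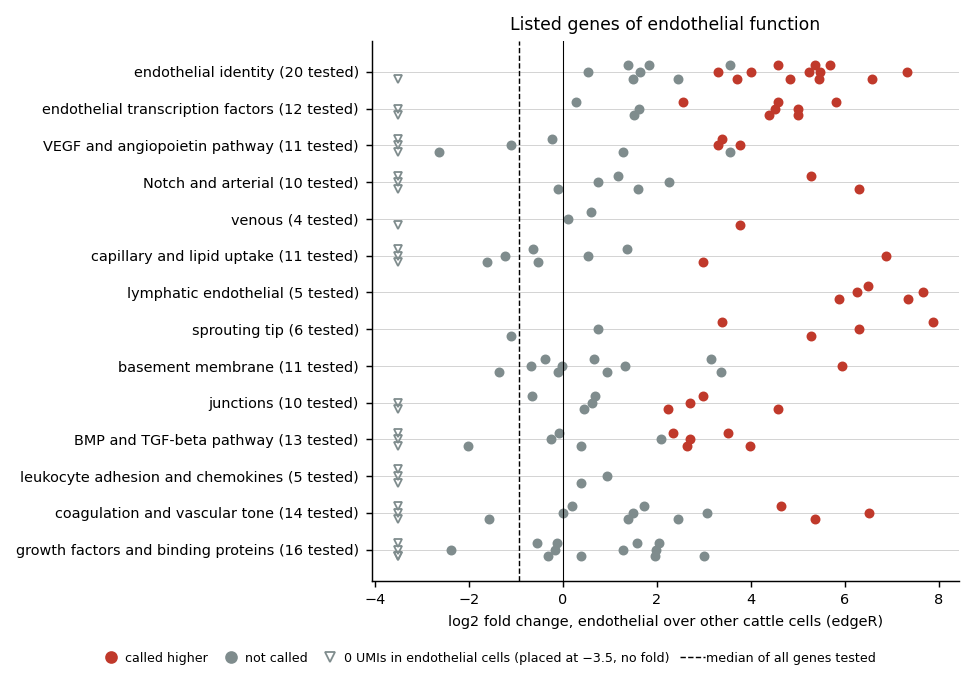
The log2 fold change of each listed gene in endothelial over all other cattle cells (x axis, edgeR on 6 library sums) is shown by gene list, with genes called higher in red, uncalled genes in grey, and genes without a UMI in the endothelial cells as hollow triangles placed at the left edge with no fold. All 5 tested lymphatic endothelial genes lie to the right of the dashed median of all genes at -0.94, whereas the leukocyte adhesion list holds no called gene.

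Among ligands and receptors of vessel growth, the VEGF and angiopoietin pathway had 3 higher and no lower calls of 11 genes tested and a median of -0.22. The called genes were the co-receptor NRP2, the angiopoietin receptor TEK and its ligand ANGPT2, which was at 0, 78.1 and 207 CPM against 8.63, 5.57 and 19.7 CPM (3.39, SE 0.61, adjusted P = 0.0112; 0.0612 without cattle 2). In the Notch and arterial list 2 of 10 genes were higher, the ligand DLL4 at 0, 95.4 and 16.8 CPM against 0.863, 0.546 and 0.399 CPM, and the netrin receptor UNC5B at 0, 69.4 and 55.9 CPM against 0.863, 1.09 and 1.74 CPM. DLL4 was called at an adjusted P of 0.000966 and was lost without cattle 2 (0.210), whereas UNC5B passed under every alternative that was run. In the sprouting tip list 4 of 6 genes were higher, with a median of 4.34, and besides ANGPT2, DLL4 and UNC5B these included the secreted proteoglycan ESM1 (7.87, SE 0.70, adjusted P = 8.63e-05). Of 4 venous genes NRP2 alone was called, and its call was lost without cattle 2 (0.138) and without cattle 3 (0.390). Of 11 genes for capillaries and lipid uptake the median was -0.64, and 1 was lower with the library block but not without it. The carbonic anhydrase CA4 and the cell cycle regulator RGCC were higher. Both calls were lost without cattle 2, which held 30 of the 31 CA4 UMIs (adjusted P = 0.752 for CA4 and 0.416 for RGCC).

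The lymphatic endothelial list stood at the other end of the range. All 5 of its tested genes were higher, none was lower, and the median was 6.51 against -0.94 for all genes tested. CCL21 had 92, 1105 and 1237 UMIs in the endothelial cells of cattle 1, 2 and 3. This amounted to 23081, 9585 and 6916 CPM, against 125, 65.0 and 37.2 CPM in the other cells and 81.8, 163 and 69.8 CPM in empty droplets. The endothelial level was above the other cells in 3 of 3 libraries (6.51, SE 0.77, adjusted P = 0.000546; 0.0746 without cattle 2). MMRN1, a multimerin stored by lymphatic and venous endothelium, was at 251, 278 and 179 CPM against 0.863, 1.04 and 0.826 CPM (7.66, SE 0.46, adjusted P = 8.57e-06). LYVE1, the hyaluronan receptor of lymphatic vessels, was at 0, 312 and 196 CPM against 3.16, 4.59 and 2.16 CPM (5.89, SE 0.56, adjusted P = 0.000118). The transcription factor PROX1 had 0, 3 and 7 UMIs (7.34, SE 0.82, adjusted P = 0.000318) and the secreted glycoprotein RELN 0, 5 and 7 UMIs (6.27, SE 0.67, adjusted P = 0.000242). MMRN1 and LYVE1 passed under every alternative that was run. PROX1 and RELN passed wherever they were tested, but both fell under a minimum of 50 counts, and PROX1, with 7 of its 10 UMIs in cattle 3, was not tested without that library. FLT4, the lymphatic VEGF receptor, had only 3 UMIs and was below the minimum count for a test.

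Structural and signalling lists held called genes as well. Of 11 basement membrane genes the laminin chain LAMA4 alone was higher (5.95, SE 0.63, adjusted P = 0.000240); 4 passed with the library block. The matricellular protein SPARC did not differ by the test (-0.38, SE 0.69, adjusted P = 0.857), at 0, 1770 and 637 CPM against 809, 1192 and 1115 CPM. Of 10 junction genes 4 were higher, namely TJP1, F11R, ESAM and the gap junction gene GJA1, but all 4 lost their call without cattle 2 (adjusted P = 0.150, 0.326, 0.492 and 0.119), and TJP1, F11R and GJA1 also without cattle 3 (0.363, 0.441 and 0.114). Of 13 genes of the BMP and TGF-beta pathway 5 were higher: the receptors ACVRL1 and TGFBR2, the transducer SMAD1 and its targets ID1 and ID3. SMAD1 was at 0, 226 and 391 CPM against 12.9, 17.0 and 15.5 CPM (3.99, SE 0.50, adjusted P = 0.000787). Without cattle 2, SMAD1 alone of these 5 genes kept its call.

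In the coagulation and vascular tone list 3 of 14 genes were higher (6 higher and 1 lower with the library block), with a median of 1.44. PROCR, the endothelial protein C receptor, was at 251, 95.4 and 196 CPM against 1.44, 1.31 and 1.45 CPM (6.52, SE 0.45, adjusted P = 1.34e-05). F8, coagulation factor VIII, was at 0, 60.7 and 185 CPM against 2.59, 4.31 and 5.12 CPM (4.65, SE 0.54, adjusted P = 0.000516). CALCRL, described above, completed the called genes. No gene was called among 5 tested for leukocyte adhesion and chemokines (1 lower with the block). In that list ICAM1, SELE, SELP, ACKR1 and CCL2 had no UMI in the endothelial cells. Its median of -4.28 therefore includes fitted values at 0 counts and measures no size. None was called among 16 growth factors and binding proteins (median -0.14, with 2 higher and 1 lower under the block) or 13 cell division genes (median -1.42). Of 11 immediate early genes, which respond to stress and tissue digestion, the phosphatase DUSP1 was higher at 251, 139 and 296 CPM against 47.5, 36.1 and 62.1 CPM (1.92, SE 0.43, adjusted P = 0.0357); this call was lost without cattle 2 (0.334) and without cattle 3 (0.512).

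Transcripts that mark other cell types were present as well. The sums below include genes of the drop conditions: 3 each for Leydig, Sertoli, macrophage and lymphocyte cells and 4 of 5 germ cell genes. By rule, kept cells held a UMI in fewer than 2 genes of each condition, while the dropped barcodes stayed among the other cells. Lower sums and lower calls in these lists were therefore partly fixed by the selection. INSL3, the insulin-like peptide of Leydig cells, had 368 UMIs in 81 of the 90 cells. INSL3 was at 5519, 841 and 1392 CPM in endothelial cells against 47482, 5279 and 7535 CPM in the other cells and 111273, 24508 and 17398 CPM in empty droplets (adjusted P = 0.0544), and in cattle 1 and cattle 3 it exceeded CLDN5 in the endothelial cells. The 6 Leydig genes summed to 5519, 954 and 1476 CPM against 49164, 6174 and 8008 CPM, HSD17B3 alone had no UMI, and none of the 3 that could be tested was called (1 was lower with the block). Stromal genes summed to 502, 625 and 1823 CPM against 2711, 4429 and 4010 CPM, all 7 held a UMI, the most abundant was DCN with 157 UMIs, and none of 7 was called (6 were lower with the block). Myoid genes summed to 0, 520 and 744 CPM against 2694, 2207 and 3504 CPM, with 3 of 6 lower (6 with the block), and the most abundant was ACTA2 with 122 UMIs.

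Of 7 Sertoli genes 6 held a UMI, summing to 0, 304 and 185 CPM against 1798, 1675 and 1121 CPM, with INHA the most abundant and INHA and AARD lower of 4 tested. Of 7 macrophage genes 6 held a UMI, summing to 502, 104 and 145 CPM against 778, 899 and 1091 CPM, with C1QA the most abundant, CD14 at 0 and none called of 4 tested. Of 7 lymphocyte genes 5 held a UMI, summing to 251, 95.4 and 145 CPM against 964, 979 and 880 CPM, with CCL5 the most abundant and lower of 4 tested (2 lower with the block) and PTPRC and IL7R at 0. Germ cell genes summed to 0, 26 and 39.1 CPM against 266, 176 and 273 CPM. DDX4, DAZL and TDRD1, which belong to the drop conditions, were at 0, and UCHL1, with 8 UMIs, was lower. Pericyte genes summed to 0, 78.1 and 5.59 CPM against 10.1, 11.5 and 13.8 CPM, with RGS5 the most abundant, NOTCH3, KCNJ8, ABCC9 and PDGFRB at 0 and none called of 5 tested (1 higher with the block). No erythroid gene had a UMI and the platelet genes PF4, PPBP and GP9 were at 0, and neither list held a call. At least 2 stromal or myoid genes were present in 0, 12 and 16 of the endothelial cells, and 0, 3 and 3 were among the highest doublet scores of their library. Without the 28 cells that held stromal or myoid genes, 171 genes were higher and 126 lower, and these shared 170 of the 253 higher and 66 of the 145 lower genes called over all 90 cells. The part of cells of other types and of cell-free RNA in these results was not tested.

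Over all genes with a symbol, 81 were called higher, higher in 3 of 3 libraries and at a mean of at least 50 CPM in endothelial cells. The 20 with the largest fold changes were C1QTNF9, SMIM10, MMRN1, RAMP3, TM4SF18, MRAP2, MSMP, PROCR, NOV, CCL21, MANSC4, LAMA4, GRAP, CALCRL, GPX3, EFNA1, STAB1, S100A1, CSGALNACT1 and PARD6G. RAMP3, another partner of CALCRL for adrenomedullin, was at 502, 260 and 157 CPM against 1.73, 0.983 and 0.740 CPM (7.49, SE 0.49, adjusted P = 1.04e-05). SMIM10, a small membrane protein, was at 251, 200 and 229 CPM against 1.15, 0.873 and 0.399 CPM (8.03, SE 0.54, adjusted P = 1.04e-05). EFNA1, an ephrin ligand, was at 502, 373 and 252 CPM against 8.63, 7.31 and 8.85 CPM (4.96, SE 0.39, adjusted P = 3.66e-05). In none of these genes did an endothelial sum fall within the range of the other cells, which the rule that chose them largely fixes. The calcium-binding protein S100A1 combined a high level with a large difference, at 3261, 1423 and 1756 CPM against 34.2, 61.9 and 45.8 CPM (4.77, SE 0.49, adjusted P = 0.000217). STAB1, a scavenger receptor of sinusoidal and lymphatic endothelium, was at 753, 252 and 509 CPM against 10.6 to 12.7 CPM (4.83, SE 0.43, adjusted P = 8.63e-05). The antioxidant GPX3, the matricellular protein NOV and the complement-like C1QTNF9 were also among the 20, although C1QTNF9 rested on 14 UMIs.

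**Figure D2:**
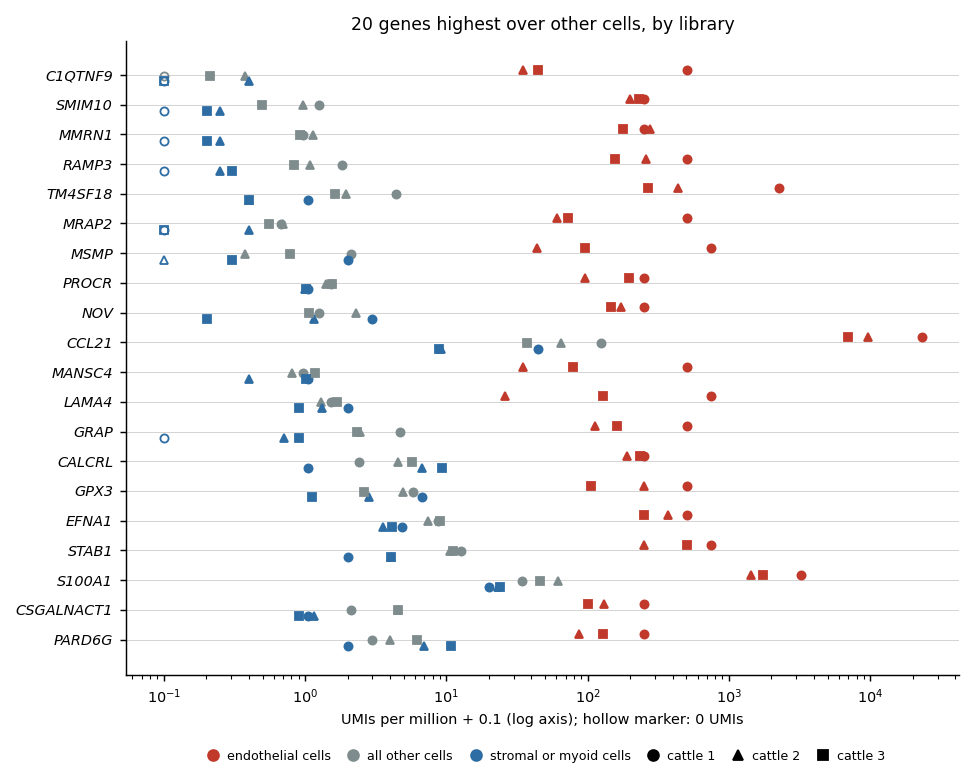
CPM (log axis, with 0.1 added) of the 20 genes with the largest fold changes are shown for each cattle library (circle, triangle and square) in endothelial cells (red), all other cells (grey) and stromal or myoid cells (blue), with hollow markers for 0 UMIs. The red markers of every gene lie to the right of its grey and blue markers, and CCL21 reaches 23081, 9585 and 6916 CPM.

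Of the genes called lower in endothelial cells, 85 had the lower value in 3 of 3 libraries and a mean of at least 50 CPM in the other cells. A 0 in cattle 1 meets that rule but does not show a lower level there, since it may still reach 753 CPM. The 10 of these 85 genes with the largest differences were CD7, WFDC3, EMID1, a PRAME gene (ENSBTAG00000047085), CT47B1, TNNI1, MFAP4, TKTL1, TCF23 and OTOS. The lymphocyte antigen CD7 had no UMI in the 90 cells against 67.0, 48.3 and 76.1 CPM in the other cells, at least 6.62-fold lower at a floor of 3 UMIs over the 3 libraries. WFDC3, EMID1, the PRAME gene and CT47B1 were also without a UMI, and were at least 4.92-, 4.04-, 5.68- and 5.50-fold lower at that floor. The fibre-associated MFAP4 was at 0, 0 and 11.2 CPM against 153, 94.5 and 94.8 CPM (-4.33, SE 0.78, adjusted P = 0.0109). None of these 10 genes kept its call without cattle 2, where 0 genes were called lower. Outside ribosomal and mitochondrial genes, the most abundant transcripts of the endothelial cells included B2M, TMSB10, FTH1, IFITM3, VIM and ACTB, which are widely expressed, and CCL21. B2M, the light chain of class I molecules, was at 15304, 15293 and 16617 CPM against 7867, 7279 and 7186 CPM, and did not pass the test (0.55, SE 0.67, adjusted P = 0.796).

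A second comparison set the endothelial cells against 7170 interstitial stromal and peritubular myoid cells (1244, 3733 and 2193), which held a UMI in at least 2 of DCN, LUM, PDGFRA, TCF21, ACTA2, MYH11 and TAGLN and none in the 5 selection genes. Here 288 of 11542 genes (2.5%) were higher and 334 (2.89%) lower, and with the library block 403 were higher and 680 lower. Without cattle 2 the counts were 172 and 52, and without cattle 3 they were 158 and 113. The split between directions moved with the scaling, to 383 higher and 197 lower by library size alone and to 304 and 183 with DESeq2, and the median of all genes tested was -0.56. The 10 genes with the largest fold changes of 79 that met the rule were MMRN1, SMIM10, TM4SF18, RAMP3, MRAP2, CCL21, C1QTNF9, MSMP, GRAP and NOV. MMRN1 was at 0, 0.151 and 0.101 CPM in the stromal and myoid cells (10.07, SE 0.59, adjusted P = 4.76e-09), and CCL21 was at 44.8, 9.07 and 8.81 CPM (8.47, SE 0.84, adjusted P = 2.67e-06).

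The lymphatic endothelial list again had the highest median. Its genes were higher in 5 of 5 with a median of 9.22, identity genes in 12 of 19 with 4.39 and transcription factors in 7 of 10 with 5.25. The nitric oxide synthase NOS3 rose against stromal and myoid cells (3.89, SE 0.87, adjusted P = 0.00951; 0.717 without cattle 2), at 0, 60.7 and 11.2 CPM against 2.86, 0.605 and 2.13 CPM. The lipoprotein lipase LPL and the matricellular SPARCL1 were lower (adjusted P = 0.0310 and 0.0270), and SPARCL1 was at 0, 252 and 173 CPM against 337, 618 and 771 CPM. Neither kept its call without cattle 2 or without cattle 3, and LPL also lost it with DESeq2 (0.368). Besides these, the cell division genes TOP2A and UBE2C, the laminin LAMB1, the vasoactive ECE1 and PTGIS and the Sertoli gene INHA were called lower in this comparison, and the growth factor PDGFB, the laminin LAMA5 and the junction gene JAM2 higher. None of these 9 genes held its call under all alternatives. With DESeq2 the calls of TOP2A, UBE2C, ECE1, PTGIS and INHA were lost (adjusted P = 0.370, 0.102, 0.0604, 0.154 and 0.115). The collagens COL1A1, COL1A2 and COL3A1 and the contractile genes CNN1, DES and ACTG2 were lower in 6 of 6 that the choice of stromal and myoid cells did not use, and of these ACTG2 alone kept its call without cattle 2.

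The endothelial cells were not uniform in CCL21. The count was 0 in 25 cells, 1 in a single cell and 2 in none, and the remaining 64 cells held from 3 to 117 UMIs, with 6 cells between 3 and 5. This gap was noticed in the data, the threshold of 3 was placed after the counts were seen, and the differences between the 2 sides are given without a test. All 5 endothelial cells of cattle 1, 29 of 49 in cattle 2 and 30 of 36 in cattle 3 held at least 3 CCL21 UMIs. The cells under 3 had the higher median total, 2395 against 1650 UMIs in cattle 2 and 4798 against 4240.5 UMIs in cattle 3.

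**Figure D3:**
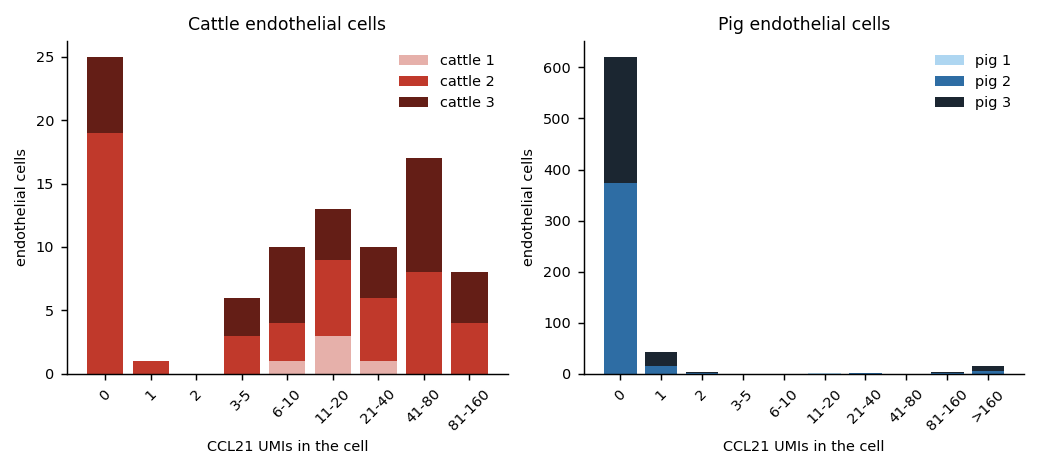
The number of endothelial cells (y axis) is shown by the CCL21 UMIs each cell held (x axis, in bins) for cattle (left) and pig (right), with libraries stacked. In cattle 25 cells were at 0 and 64 held 3 or more, whereas 621 of 688 pig cells were at 0.

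The other lymphatic genes lay almost entirely on the CCL21 side. At least 1 of LYVE1, MMRN1, RELN, PROX1 and FLT4 was present in 44 of the 64 cells with at least 3 CCL21 UMIs and in 1 of the 26 cells below. MMRN1 was present in 29 cells against 0, LYVE1 in 27 against 1, RELN in 12 against 0 and PROX1 in 9 against 0. At a threshold of 10 UMIs the counts were 36 of 50 and 9 of 40. The widest gaps in the share of cells with a UMI included S100A1 (61 cells against 2), the actin regulator GMFG (52 against 1), the metallothionein MT2 (48 against 1), the growth factor PTN (63 against 8), FGL1 (41 against 1), STAB1 (43 against 2), the cholesterol hydroxylase CH25H (37 against 0) and the pentraxin PTX3 (40 against 2). NOV, GPX3, PROCR and LAMA4 were among the 20 genes with the largest fold changes of the 81 that met the rule above. They had 30, 29, 26 and 20 cells with a UMI on this side and none on the other. ANGPT2 and UNC5B, both on the sprouting tip list, were present in 26 cells against 1 and in 17 against 1, whereas ESM1 and DLL4 of the same list lay on the other side (0 against 9 and 3 against 8).

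Several of the sparse blood vessel genes were found in the 26 cells with fewer than 3 CCL21 UMIs. VWF was present in 5 of these cells and none of the 64, ESAM in 9 and none, CD93 in 7 and none, and CA4 in 11 and none. The proteoglycan core SRGN was present in 23 of 26 cells against 4 of 64, TMEM88 in 17 against 0, the hypoxia factor EPAS1 in 19 against 10, CLEC14A in 17 against 6 and the transporter ABCG2 in 12 against 1. SPARC was present in all 26 cells, at 2860 CPM over their sum, against 33 of 64 cells and 289 CPM. In the cells outside the selection it was at 1121 CPM. IGF2, a growth factor of fetal and young tissue, was present in 21 of 26 cells against 18 of 64. Both sides occurred within cattle 2 and cattle 3: SRGN in 18 of 20 and 5 of 6 cells against 2 of 29 and 2 of 30, and S100A1 in 1 of 20 and 1 of 6 cells against 28 of 29 and 29 of 30. At least 2 stromal or myoid genes were present in 11 of the 26 cells and 17 of the 64. In cattle 2 this was 6 of 20 against 6 of 29, and in cattle 3 it was 5 of 6 against 11 of 30. The part of these mixed cells in the differences was not tested.

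Other endothelial genes were present on both sides. RAMP2 was present in 62 of 64 and 24 of 26 cells, ECSCR in 35 and 14, CALCRL in 30 and 12, TM4SF18 in 32 and 17, ERG in 13 and 5, and CLDN5, which the selection used, in 61 and 25. When each cell was thinned to 1000 UMIs, which 60 and 25 cells reached, S100A1 was present in 83.3% of the cells with at least 3 CCL21 UMIs and 0% of the others, LYVE1 in 31.7% and 0%, SPARC in 26.7% and 96%, and SRGN in 6.67% and 64%. The order of these shares was thus the same at equal depth.

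**Figure D4:**
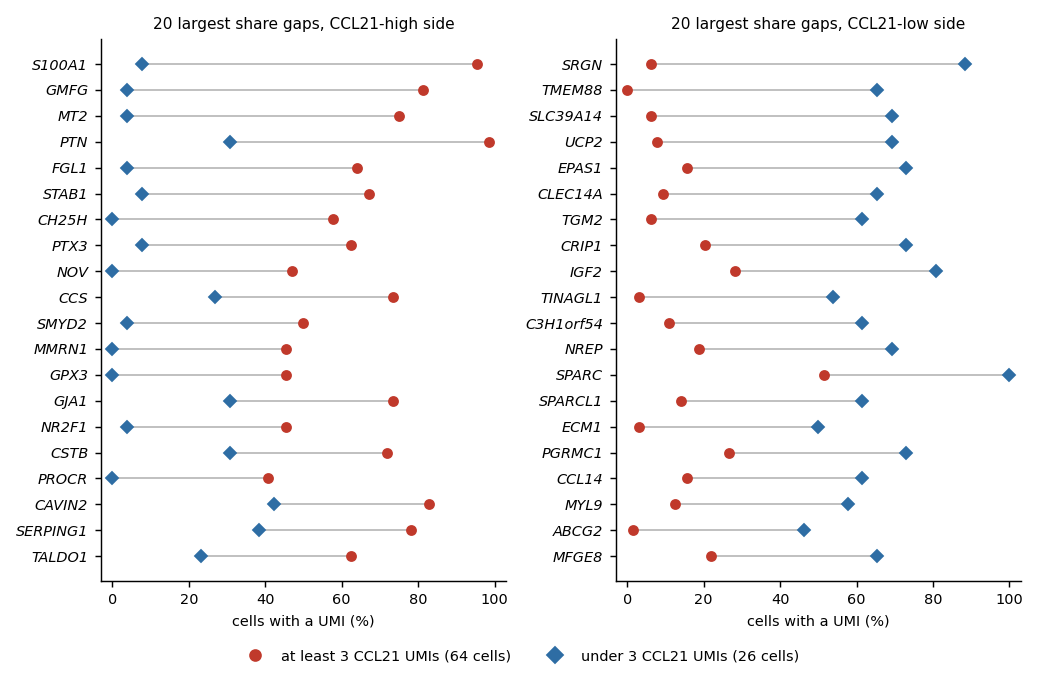
The share of cells with a UMI (x axis, percent) is shown for cells with at least 3 CCL21 UMIs (red circles, 64 cells) and under 3 (blue diamonds, 26 cells), for the 20 genes with the largest gap in each direction. S100A1 was present in 61 against 2 cells and SRGN in 4 against 23.

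In the pig libraries the same selection was applied without CLDN5, since the pig gene table does not hold that symbol. The drop gene DAZL had no pig value either. This selection kept 1, 398 and 289 cells, or 688 of 9457 called barcodes. The shares were 0.0308%, 10.1% and 12.7%. The mean share was 0.427% ± 0.248 (SD, n = 3) in cattle and 7.61% ± 6.69 (SD, n = 3) in pig, and the difference did not pass a two-sided exact permutation test (P = 0.4, where the smallest P that 3 against 3 allows is 0.1). The pig shares of 0.0308% and 10.1% enclosed all 3 cattle shares. In percentage points the difference was smaller at equal depth, with means of 0.107% in cattle and 0.585% in pig when every barcode was thinned to 460 UMIs. Few cells met the selection at that depth, with 2, 16 and 5 in cattle and 1, 35 and 19 in pig. The shares of pig 2 and pig 3 (0.890% and 0.834%) stayed above those of cattle (0.0564%, 0.183% and 0.0805%), and that of pig 1 (0.0308%) lay below them. With 1 calling minimum of 500 UMIs in all libraries, which leaves depth unequal, the means were 0.373% and 2.86%. The gate without CLDN5 in cattle gave a P of 0.3.

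The endothelial effect of a gene, its log2 fold change over the other cells, was compared between species over 12789 shared symbols. It was larger in cattle for 41 genes (0.321%) and smaller for 19 (0.149%), and with the library block for 161 and 200. In pig alone, 1166 of 15246 genes (7.65%) were higher and 1144 (7.5%) lower, 2011 and 3032 with the block, and 317 and 157 with DESeq2. Without pig 1, whose endothelial sum is 1 cell, 503 were higher and 42 lower. The composition factor of that sum was 8.82 in the pig fit and 14.0 in the fit over both species. Among the genes named here, MSMP, NOV, RAMP3 and GPX3 had the larger effect in cattle. MRAP2 was called too, on 1 UMI in pig, and lost its call without pig 2 (0.0507). MANSC4 was called as well, but it had no UMI in the pig endothelial cells, so its fold is no bound, and it lost its call with DESeq2 (0.133), without cattle 3 (0.154) and without pig 1 (0.0639). RAMP3 was at 201 CPM over the cattle endothelial cells and 3.06 CPM over those of pig, with 0.878 and 3.76 CPM in other cells, and its effect was larger in cattle by 7.79 (SE 0.69, adjusted P = 2.45e-06). The lymphatic genes MMRN1, RELN and PROX1 were also larger in cattle, by 3.88, 6.54 and 5.15 (adjusted P = 0.00533, 0.00383 and 0.0105), but none of the 3 kept its call with DESeq2 or without cattle 3, and over all alternatives their adjusted P ran up to 0.327, 0.327 and 0.554. The sums compared also differ in their mix, since 64 of 90 cattle and 22 of 688 pig endothelial cells held at least 3 CCL21 UMIs. Of those cells, 60 in cattle and 21 in pig reached 1000 UMIs. After thinning to 1000 UMIs, PROX1 and RELN were each present in 5% of cattle (3 cells) and 4.76% of pig cells (1 cell). For MMRN1 the order was opposite to its effect (25% and 61.9%), and these shares were not tested. For CCL21, LYVE1 and STAB1 the difference in effect did not pass (adjusted P = 0.841, 0.619 and 0.646). NOSTRIN, a regulator of NOS3, and SPARCL1 had the larger effect in pig, by 3.38 and 4.80 (adjusted P = 0.0356 for each), and neither held without cattle 2 or cattle 3 (0.162 and 0.325 without cattle 3). Within cells under 3 CCL21 UMIs, thinned to 1000 UMIs, NOSTRIN was present in 16% of cattle and 11.6% of pig cells. SPARCL1 was present in 36% and 39.3% of them.

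Of the pig endothelial cells, 22 of 688 held at least 3 CCL21 UMIs, or 3.20%, against 64 of 90, or 71.1%, in cattle. At least 1 of the other 5 lymphatic genes was present in 21 of those 22 pig cells and in 83 of the remaining 666. After thinning to 1000 UMIs, which 85 cattle and 687 pig cells reached, VWF was present in 1.18% of cattle and 41.5% of pig cells, CD93 in 1.18% and 39.4%, CD34 in 1.18% and 37.0%, STAB1 in 30.6% and 2.62%, and RAMP2 in 81.2% and 45.1%. Within the cells with at least 3 CCL21 UMIs, 60 in cattle and 21 in pig, MMRN1 was present in 25% of cattle and 61.9% of pig cells and STAB1 in 40% and 28.6%. Within the cells under 3, 25 in cattle and 666 in pig, VWF was present in 4% and 42.8%, CD93 in 4% and 40.7% and CD34 in 4% and 38%, where 4% is 1 cattle cell. These shares are over cells of unequal libraries, differ in their mix of the 2 CCL21 classes and were not tested. Species, breed, age, sequence annotation, the selection gene CLDN5 and the drop gene DAZL differ together between these cells and cannot be told apart.

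**Figure D5:**
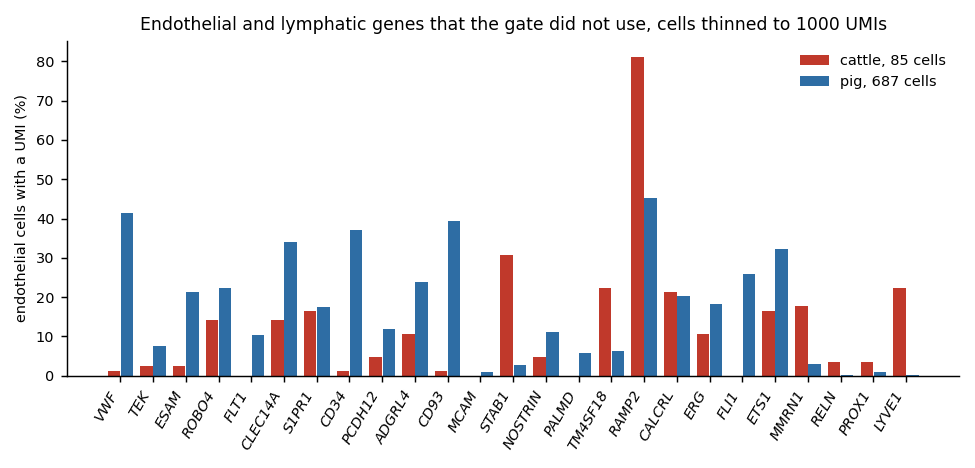
The share of endothelial cells with a UMI (y axis, percent) after thinning to 1000 UMIs is shown for endothelial and lymphatic genes that the selection did not use, in 85 cattle (red) and 687 pig cells (blue). VWF, CD34 and CD93 are higher in pig and STAB1, RAMP2, MMRN1 and LYVE1 in cattle over all cells, whereas within cells with at least 3 CCL21 UMIs the order of MMRN1 is the opposite (25% in cattle and 61.9% in pig).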

How the data were processed

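Droplet libraries (10x Genomics) of 3 cattle and 3 pig testis suspensions were analysed. The authors aligned reads with Cell Ranger 2.1.0 to ARS-UCD1.2 (cattle) and Sscrofa11.1 (pig), per the labels and methods; the headers of the pig files name 3.0.2. The deposited values are raw UMI counts per gene and barcode, before cell filtering in cattle. Barcodes were called at the default rule of Cell Ranger 2 (the 99th percentile of the top 3000 barcodes divided by 10). The members and the 26 gene lists were chosen with earlier results of these data known. Counts were summed per library and class, and a gene was tested where its sums held 10 or more counts together, in edgeR 4.0.16 (R 4.3.3; TMM, quasi-likelihood test, Benjamini-Hochberg, threshold 0.05), with each library as its own replicate. The same script was tested on simulated data. DESeq2 1.42.0, library size alone, other count minimums, other selections, left-out libraries and a library block were alternatives. Named genes outside the lists were the 20 highest, 10 lowest, 10 highest over stromal and myoid cells and 10 most abundant by the rules given with them; a gene on 2 lists counts in both. Doublet scores came from Scrublet in scanpy 1.11.5, and no cell was removed for them except as an alternative. Barcodes of at most 50 UMIs were read as empty droplets in cattle. Levels are CPM of UMIs near the transcript end, not scaled by length, and depth ranged from 3986 to 178853 UMIs per cattle endothelial sum.

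Libraries paired the sums: deviations of the endothelial and other sums of 1 library from their group means correlated at 0.322, 0.330 and 0.430 in cattle over 2374 genes, above every other pairing.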

Additional observations from a re-analysis of the deposited data

Results flagged for a closer look

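For 14 genes named above, the endothelial effect (log2 fold change over other cells of the same library) differed between cattle and pig by an interaction test in edgeR at an adjusted P below 0.05. The effect was larger in cattle by 10.23 for MANSC4 (0 UMIs in pig endothelial cells, so that the fitted value is no bound), 9.39 for MSMP, 8.47 for MRAP2 (1 UMI in pig), 8.19 for NOV, 7.79 for RAMP3, 7.56 for GPX3, 6.54 for RELN, 6.01 for PARD6G, 5.15 for PROX1 and 3.88 for MMRN1. The difference was -14.41 for CD7 and -14.92 for EMID1, both without a UMI in cattle endothelial cells, so that neither fitted value is a bound, -4.80 for SPARCL1 and -3.38 for NOSTRIN. CD7 lost its call without cattle 3 (adjusted P = 0.108; over all alternatives 0.000824 to 0.142). The pig side of these values rests on 398 and 289 cells of pig 2 and pig 3 and on 1 cell of pig 1. The mix of cells differed too, with at least 3 CCL21 UMIs in 71.1% of cattle and 3.20% of pig endothelial cells. Of those cells, 60 in cattle and 21 in pig reached 1000 UMIs, so that 4.76% is 1 pig cell. After thinning to 1000 UMIs, PROX1 and RELN were each present in 5% of cattle (3 cells) and 4.76% of pig cells. RAMP3 was in 10% and 9.52%, and MMRN1 in 25% and 61.9%. The share was larger in cattle for NOV (23.3% and 0%), GPX3 (31.7% and 4.76%), MSMP (15% and 0%), MRAP2 (16.7% and 0%), MANSC4 (8.33% and 0%) and PARD6G (13.3% and 4.76%). Each of these rests on 0 or 1 pig cell, and MANSC4 on 5 cattle cells. These shares were not tested.

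Outside the selection, 20 cattle barcodes held at least 3 CCL21 UMIs with no UMI of the 5 selection genes and no drop condition, 11 in cattle 1, 8 in cattle 2 and 1 in cattle 3. Their median total was 1008 UMIs. S100A1 was present in 16 of them, PTN in 17, STAB1 in 8 and at least 1 of LYVE1, MMRN1, RELN, PROX1 and FLT4 in 7. Among 10393 barcodes without a selection gene, a drop condition or 3 CCL21 UMIs, PTN was present in 70.5%, so that its count is near that share. In the same barcodes S100A1 was present in 6.49%, STAB1 in 1.04% and a gene of those 5 in 0.876%.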

How the results depend on the processing

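Of the 73 genes called against other cells that are named or listed here, none changed direction under any alternative that was run. Their calls were lost for 36 genes without cattle 2, 14 without cattle 3, 17 without the cells holding stromal or myoid genes, 9 against other cells that met no drop condition, and 4 or fewer in each remaining setting; 36 genes, among them MMRN1, LYVE1, STAB1, ERG, PROCR, RAMP3, TM4SF18 and CALCRL, kept their call wherever they were tested. Of these 36, C1QTNF9, PROX1 and RELN fell under the minimum of 50 counts, and PROX1 was not tested without cattle 3.

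Counts of calls moved more. In the fits with the library pair as a replicate block, 407 genes were higher and 444 lower than other cells, 680 were lower than stromal and myoid cells, 2011 were higher and 3032 lower in pig, and 161 and 200 differed between species (41 and 19 without the block). With no minimum count, 279 genes were lower than other cells, 552 lower than stromal and myoid cells and 1867 lower in pig. With DESeq2, 183 were lower than stromal and myoid cells, 317 higher and 157 lower in pig, and 25 and 11 differed between species. By library size alone 197 were lower than stromal and myoid cells and 33 had a smaller effect in cattle. Requiring 3 UMIs left 308 lower than other cells and 38 smaller in cattle; leaving out the highest Scrublet scores gave 263 lower; and other cells without a drop condition gave 241 lower in cattle, 605 lower in pig and 29 smaller in cattle.

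Leaving out 1 library gave 92 to 327 higher and 0 to 294 lower than other cells, 158 to 354 higher and 52 to 383 lower than stromal and myoid cells, 503 to 1131 higher and 42 to 1200 lower in pig, and 15 to 40 larger and 4 to 28 smaller effects in cattle. Without pig 1, its single cell gone, the lower count in pig was the 42. The difference in share kept its sign but fell from 7.19 to 0.479 percentage points (lower in cattle) with barcodes thinned, with exact P from 0.2 to 0.8 over its alternatives. Thinning lowered both mean shares, to 0.107% in cattle and 0.585% in pig. The cause of these moves was not tested. Depth limits the 5 cells of cattle 1 most, where a gene without a UMI may reach 753 CPM.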

Other observations

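CCL21 at 3 UMIs or more was not confined to the 90 endothelial cells. It occurred in 69 of the 18414 other called cattle barcodes. Besides the 20 barcodes without a selection gene, 20 held UMIs of a single selection gene (S100A1 in 17, a lymphatic gene in 9) and 29 met a drop condition (S100A1 in 28, a lymphatic gene in 22). Of the barcodes without a selection gene, a drop condition or 3 CCL21 UMIs, 6.49% held S100A1 and 0.876% a lymphatic gene. Of 35 barcodes that met the endothelial condition and no drop condition, with totals from 50% of the minimum up to it, 20 held at least 3 CCL21 UMIs. These values were chosen after the counts were seen and were not tested.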
